A study of Mus musculus with 9 samples.

Results

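The genes of the epithelial to mesenchymal transition (EMT) measured here are 10 of the 54232 mouse genes in the count file. They were taken because their Ensembl IDs carry the symbols *Cdh1*, *Epcam*, *Esrp1*, *Cdh2*, *Vim*, *Snai1*, *Snai2*, *Zeb1*, *Zeb2* and *Twist1*. No gene was picked by its measured value, but these genes were chosen with earlier results of these data known. They were followed by poly(A) RNA-seq in 9 libraries. Of these, 2 came from naïve mESCs at P5, 2 from primed mEpiSCs at P5, 2 each from the same states at P15, and 1 from mouse embryonic fibroblasts (MEFs). The naïve cells are an ES line of C57 x CBA background with a GFP reporter under the distal *Oct4* promoter, grown in S/L medium (serum with LIF), and the primed cells are the same line converted in F/A medium (bFGF with Activin A). Both states were kept on mitomycin C-treated MEF feeders, and the MEF library is also C57 x CBA. The naïve and primed libraries therefore all come from 1 ES line. The study calls the libraries of a group biological repeats, and whether they are separate cultures or separate conversions is not given in the sources used here, so that the p-values measure the spread between these libraries only. Total counts lay between 14378051 and 20985136 for the pluripotent cells, and MEFs had 25646547.

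EMT is the change by which cells of an epithelial sheet give up their junctions and apical-basal polarity and become single, motile mesenchymal cells. In the mouse embryo it takes place in the primitive streak, where epiblast cells, the embryonic counterpart of primed cells, leave the epithelium as mesoderm and endoderm. The SNAIL, ZEB and TWIST transcription factors drive it, among other ways by binding E-boxes in the promoters of epithelial genes, and a change from E-cadherin to N-cadherin is its classical readout.

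Expression levels are given as CPM, that is, counts divided by the library size, itself corrected by TMM over the 9 libraries, and brought to a common total, with the SD of the 2 libraries of a group. Fold changes are log2 values of primed against naïve cells from edgeR's quasi-likelihood test. Their standard errors (SE) were derived from that test, as the absolute log2 value divided by the square root of its F statistic. A gene was called at a Benjamini-Hochberg adjusted p under 0.01 over all genes tested. Each of the 10 genes passed the filter on low counts in every comparison.

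The naïve and primed cells grew on feeders, whose RNA was not measured apart, and in such bulk samples fewer cells of a type and less RNA per cell cannot be told apart. Of 30 fibroblast markers, none was at 0 counts in any library. Their median level in percent of the MEF library was 13.8 to 14.3 in the 4 libraries at P5, 18.2 to 18.9 in naïve cells at P15 and 22.0 to 24.0 in primed cells at P15. Their summed level was 12075 to 12098 CPM in naïve and 7667 to 7830 CPM in primed cells at P5, 19141 to 19841 CPM in naïve and 17932 to 18795 CPM in primed cells at P15, and 95007 CPM in MEFs. Single markers ranged from 0.457% of MEFs (*Ogn*, primed P5) to 343% (*Dcn*, primed P15). From naïve to primed cells 6 markers were called higher and 19 lower at P5, and 13 higher and 11 lower at P15. From P5 to P15, 24 were called higher and 1 lower in naïve cells, and 28 higher and none lower in primed cells. The state labels were checked against their markers. The summed level of 5 pluripotency genes was 2027 to 2177 CPM in naïve cells and 2.85 CPM in MEFs. In primed cells it was 749 to 752 CPM at P5 and 1239 to 1270 CPM at P15. The summed level of 7 genes of the naïve state was 1639 to 1935 CPM in naïve cells and 102 CPM in MEFs. In primed cells that sum was 212 to 215 CPM at P5 and 90.5 to 91.0 CPM at P15.

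The 3 epithelial genes were lower in primed than in naïve cells at P15, which none of them was by the test at P5. *Cdh1*, which encodes E-cadherin, the calcium-dependent adhesion molecule of adherens junctions, lies on chromosome 8 from 106603351 to 106670246 (GRCm38, plus strand). It measured 422 and 423 CPM in naïve and 496 and 481 CPM in primed cells at P5. At P15 it measured 400 and 402 CPM in naïve and 120 and 117 CPM in primed cells. MEFs had 19 counts of it, or 0.820 CPM. The groups did not overlap at either passage, and the order of the states turned around between P5 and P15. Primed cells at P5 were 1.16-fold above naïve cells (log2 0.21 ± 0.034 SE, adjusted p = 2.43e-06). At P15 they were 3.37-fold below them (log2 -1.75 ± 0.059 SE, adjusted p = 9.02e-25).

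*Epcam*, which encodes the epithelial cell adhesion molecule (chromosome 17, 87635979 to 87651129, plus strand), measured 234 and 252 CPM in naïve and 238 and 237 CPM in primed cells at P5. By P15 the levels were 201 and 204 CPM in naïve and 116 and 121 CPM in primed cells, and MEFs had 2 counts. The P5 groups overlapped, with a log2 difference of -0.03 ± 0.039 SE (adjusted p = 0.486). With scaling by library size alone, which moved the median of all genes at P5 by 0.21, the difference was 0.17 (adjusted p = 0.000466). At P15 the lowest naïve library stood above the highest primed library, and primed cells were 1.70-fold lower (log2 -0.76 ± 0.061 SE, adjusted p = 1.68e-13).

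*Esrp1* (chromosome 4, 11331933 to 11386783, minus strand) encodes a splicing regulator that keeps epithelial isoforms. It measured 60.4 and 64.0 CPM in naïve and 80.5 and 77.1 CPM in primed cells at P5, and primed cells were 1.27-fold higher (log2 0.35 ± 0.053 SE, adjusted p = 1.24e-06). The P15 libraries had 40.4 and 43.9 CPM in naïve and 33.6 and 27.4 CPM in primed cells, 1.38-fold lower in the latter (log2 -0.47 ± 0.095 SE, adjusted p = 5.40e-05). Without primed P15 replicate 2, the lower of the pair, the P15 difference was -0.30 (adjusted p = 0.0129). MEFs had no count of *Esrp1*, which allows up to 0.129 CPM, the level of 3 counts, and this limit covers counting error only. All 3 epithelial genes were thus at or near 0 in the fibroblast library.

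Of the mesenchymal pair, *Cdh2* separated the states and *Vim* did not do so in 1 direction. *Cdh2* encodes N-cadherin, the cadherin of mesenchymal and neural cells, and lies on chromosome 18 from 16588877 to 16809246 (minus strand). It measured 30.1 and 34.8 CPM in naïve and 89.9 and 91.6 CPM in primed cells at P5, and 36.3 and 38.4 CPM in naïve and 122 and 123 CPM in primed cells at P15. Every primed library stood above every naïve library, by 2.81-fold at P5 (log2 1.49 ± 0.062 SE, adjusted p = 5.65e-19) and 3.28-fold at P15 (log2 1.71 ± 0.073 SE, adjusted p = 1.05e-21). With the median feeder share of the MEF counts taken off, the log2 differences were 2.45 at P5 and 3.01 at P15. MEFs measured 136 CPM. In percent of MEFs, *Cdh2* stood at 22.1 to 28.2 in naïve libraries, where 5 to 10 of the 30 fibroblast markers stood higher, and at 66.2 to 90.1 in primed libraries, where 1 to 3 did.

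*Vim*, which encodes vimentin, the intermediate filament protein of mesenchymal cells (chromosome 2, 13573927 to 13582826, plus strand), measured 1732 and 1699 CPM in naïve and 1168 and 1176 CPM in primed cells at P5. Primed cells were thus 1.46-fold lower at P5 (log2 -0.55 ± 0.030 SE, adjusted p = 6.75e-16). Vimentin transcripts at P15 stood at 2011 and 1955 CPM in naïve and 2131 and 2059 CPM in primed cells, a difference of 0.08 ± 0.051 SE on the log2 scale (adjusted p = 0.15). Scaling by library size alone, which moved the median of all genes at P15 by 0.10, gave 0.19 (adjusted p = 0.000812). MEFs measured 2965 CPM. The summed level of the fibroblast markers was also lower in primed than in naïve cells at P5, and its part in the *Vim* difference was not tested.

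**Figure D1:**
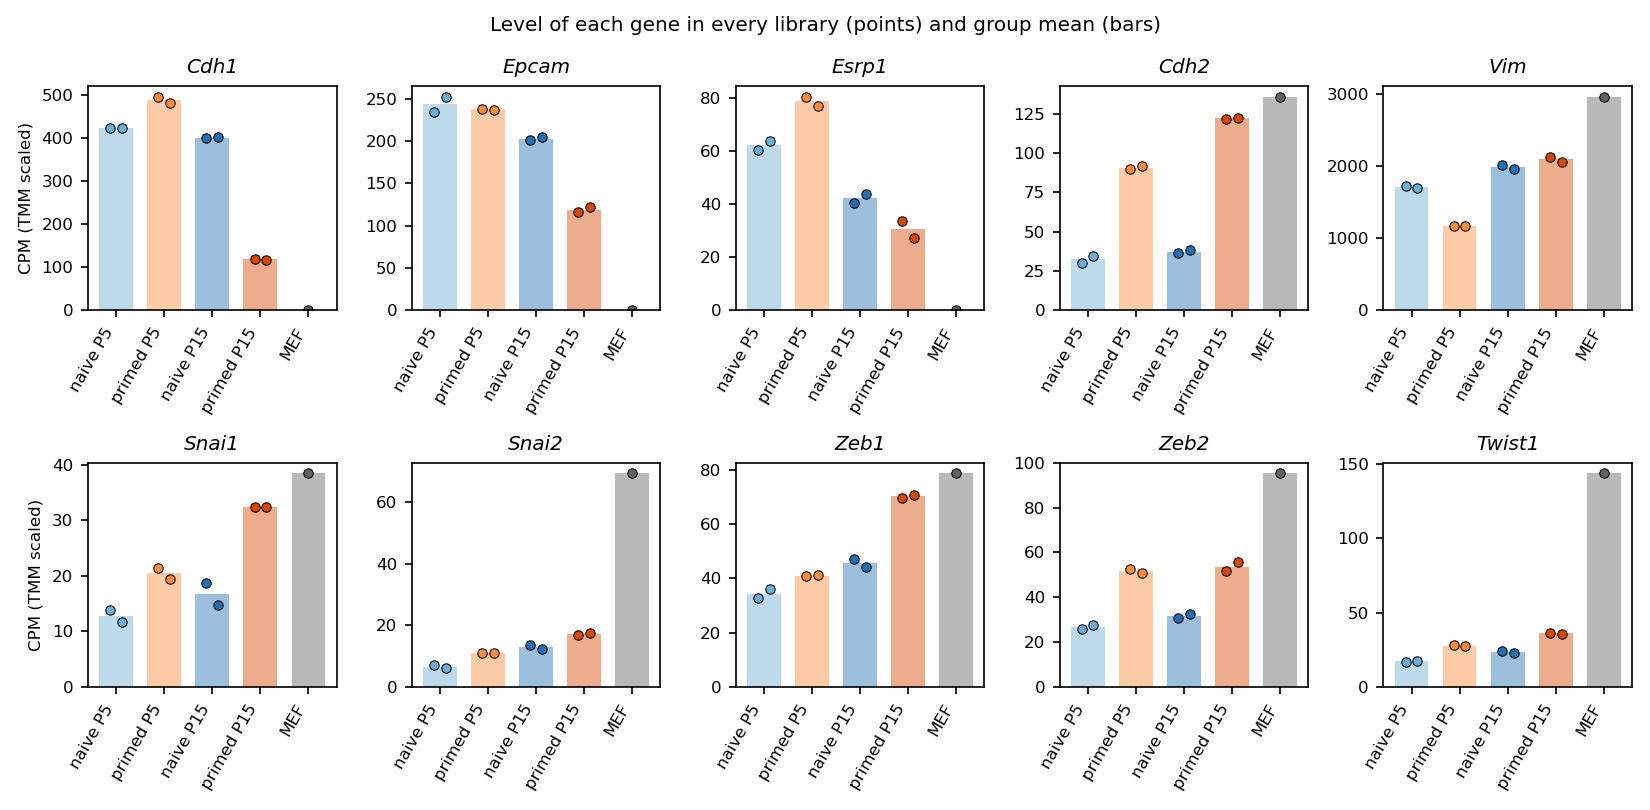
Expression level of each of the 10 EMT genes in CPM on a linear axis of its own, with 1 point for each library of the 4 groups of pluripotent cells and of MEFs and a bar for the group mean. *Cdh1* falls to 117 and 120 CPM in the primed P15 libraries alone, while every primed library lies above every naïve library for *Cdh2*.

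The 5 transcription factors were called higher in primed cells at both passages. Each fold was under 2, but with the median feeder share taken off the log2 difference was 1.07 at P5 and 1.40 at P15 for *Snai1* and 1.55 and 1.29 for *Zeb2*. Without naïve P15 replicate 1 that of *Snai1* at P15 was 1.10, and with library size alone it was 1.06. *Snai1*, the zinc finger repressor of *Cdh1* that marks the start of EMT in the primitive streak (chromosome 2, 167538195 to 167542814, plus strand), measured 13.8 and 11.6 CPM in naïve and 21.5 and 19.5 CPM in primed cells at P5. At P15 it measured 18.8 and 14.9 CPM in naïve and 32.5 and 32.4 CPM in primed cells, and MEFs had 38.5 CPM. The states did not overlap, with folds of 1.61 at P5 (log2 0.69 ± 0.11 SE, adjusted p = 1.81e-06) and 1.94 at P15 (log2 0.96 ± 0.11 SE, adjusted p = 1.55e-09). Its level was 30.2% to 55.8% of MEFs at P5 and 38.6% to 84.2% at P15, with 3 or 4 of the 30 fibroblast markers higher in each library.

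*Zeb2* (chromosome 2, 44983632 to 45117395, minus strand), a zinc finger and homeobox factor that represses epithelial genes, had the highest fold change of the 5 at P5. It measured 25.8 and 27.6 CPM in naïve and 52.5 and 50.9 CPM in primed cells at P5, a 1.94-fold difference (log2 0.96 ± 0.069 SE, adjusted p = 2.76e-13). Naïve and primed cells at P15 were at 31.0 and 32.4 CPM and at 51.9 and 55.6 CPM, a 1.70-fold difference (log2 0.76 ± 0.085 SE, adjusted p = 6.04e-10). MEFs had 95.4 CPM. Its relative *Zeb1* (chromosome 18, 5591860 to 5775467, plus strand) measured 32.6 and 35.9 CPM in naïve and 40.9 and 41.1 CPM in primed cells at P5. The groups were close, with a fold of 1.20 (log2 0.26 ± 0.070 SE, adjusted p = 0.00155). Without naïve P5 replicate 1 the log2 difference was 0.17 (adjusted p = 0.0708), without primed P5 replicate 1 it was 0.29 (adjusted p = 0.0111) and without primed P5 replicate 2 it was 0.28 (adjusted p = 0.0112). At P15 *Zeb1* was clearly apart, at 47.1 and 44.0 CPM in naïve and 69.8 and 70.7 CPM in primed cells, a 1.55-fold difference (log2 0.63 ± 0.076 SE, adjusted p = 3.73e-09), and MEFs had 78.8 CPM. *Esrp1*, *Zeb1* and *Zeb2* share exon bases with genes on the opposite strand, which had at most 14 counts in any naïve or primed library, and the strand setting of the counting is not given in the sources used here.

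*Snai2* and *Twist1* were the members whose level in percent of MEFs lay nearest the median fibroblast marker. From naïve to primed cells the markers had a median log2 difference of -0.58 at P5 and 0.12 at P15. *Snai2* (chromosome 16, 14705852 to 14709385, plus strand), the SNAIL relative of neural crest and mesenchyme, measured 7.02 and 6.20 CPM in naïve and 11 CPM in both primed libraries at P5, a 1.67-fold difference (log2 0.74 ± 0.14 SE, adjusted p = 2.99e-05). At P15 it measured 13.7 and 12.4 CPM in naïve and 16.8 and 17.6 CPM in primed cells, a 1.32-fold difference (log2 0.40 ± 0.13 SE, adjusted p = 0.00600), and MEFs had 69.3 CPM. Its P15 call was lost when any 1 of the 4 libraries was left out. The log2 difference was then 0.45 without naïve P15 replicate 1 (adjusted p = 0.0112), 0.31 without naïve replicate 2 (adjusted p = 0.0927), 0.47 without primed replicate 1 (adjusted p = 0.0104) and 0.39 without primed replicate 2 (adjusted p = 0.0367). A block for the replicate number gave an adjusted p of 0.0157.

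*Twist1* (chromosome 12, 33957671 to 33959829, plus strand), a basic helix-loop-helix factor of mesoderm, measured 17.0 and 17.4 CPM in naïve and 28.3 and 27.2 CPM in primed cells at P5. At P15 it measured 24.0 and 22.5 CPM in naïve and 36.5 and 35.4 CPM in primed cells. Primed cells were 1.62-fold higher at P5 (log2 0.70 ± 0.088 SE, adjusted p = 4.38e-08) and 1.55-fold higher at P15 (log2 0.63 ± 0.096 SE, adjusted p = 4.29e-07). MEFs, at 144 CPM, held more than any other library. *Twist1* stood at 11.8% to 25.4% of MEFs and *Snai2* at 8.95% to 25.4%, near the median fibroblast marker of the same libraries. With the median feeder share of the MEF counts taken off, *Twist1* kept 0 counts in each naïve library, 158 and 130 in primed cells at P5 and 35 and 67 at P15. *Snai2* then kept 23 and 25 counts in primed cells at P5, 2 and 42 in primed and 15 and 0 in naïve cells at P15, and none in naïve cells at P5. With groups at 0, no fold is given for these remaining counts, and the P15 call of *Snai2* was lost in them (adjusted p = 0.374). Since single markers differed so widely, that share may be too large or too small for these genes, and the part of feeder RNA in their differences was not tested further.

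**Figure D2:**
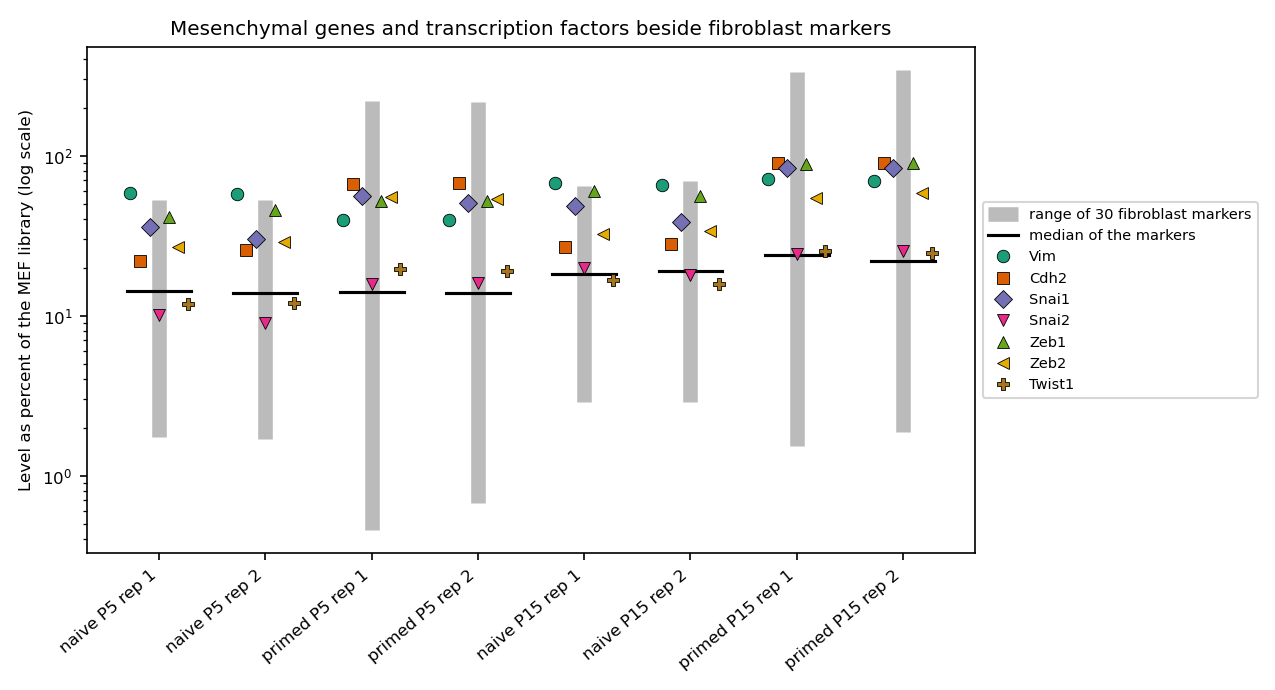
Level in percent of the MEF library, on a log scale, of the mesenchymal genes and transcription factors (symbols) in each naïve and primed library, with the range (grey bar) and median (black line) of the 30 fibroblast markers. *Snai2* and *Twist1* lie close to the median marker, and *Cdh2* in primed libraries lies at 66.2% to 90.1%.

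In all, 9 of the 10 genes were called at P5, 8 higher and 1 lower in primed cells, with *Epcam* the exception. At P15 again 9 were called, 6 higher and 3 lower, with *Vim* the exception. These counts stand against a background of 62.3% of 16482 genes called at P5 (31.2% higher, 31.1% lower) and 56.6% of 15733 at P15 (28.2% higher, 28.4% lower), so that being called in itself says little about these genes. A change of at least 2-fold, which 22.3% of genes reached at P5 and 23.2% at P15, was found for *Cdh2* at P5 and for *Cdh2* and *Cdh1* at P15. The median log2 difference of the 10 genes was 0.52 at each passage, against 0.01 at P5 and -0.0039 at P15 for all genes tested.

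The state difference itself differed between passages for 5 of the 10 genes, against 24.1% of 16926 genes (13.3% higher, 10.8% lower; 7.16% at 2-fold or more, which *Cdh1* alone of the 10 reached), in a fit of the 8 libraries with an interaction of state and passage. It was lower at P15 than at P5 for the 3 epithelial genes, with a log2 difference of -1.95 ± 0.061 SE for *Cdh1* (adjusted p = 8.86e-22), -0.72 ± 0.070 for *Epcam* (adjusted p = 9.57e-10) and -0.80 ± 0.11 for *Esrp1* (adjusted p = 7.40e-07). It was higher for *Vim* (0.65 ± 0.050, adjusted p = 5.70e-12) and *Zeb1* (0.39 ± 0.10, adjusted p = 0.00302). The *Zeb1* call did not hold without naïve P5 replicate 2 (0.33, adjusted p = 0.0317), primed P5 replicate 1 (0.35, adjusted p = 0.0250), primed P5 replicate 2 (0.37, adjusted p = 0.02) or naïve P15 replicate 2 (0.34, adjusted p = 0.0161), and with a replicate block its adjusted p was 0.0126. For *Cdh2* (0.24 ± 0.097, adjusted p = 0.0527), *Snai1* (0.28 ± 0.16, adjusted p = 0.173), *Snai2* (-0.32 ± 0.18, adjusted p = 0.187), *Zeb2* (-0.18 ± 0.11, adjusted p = 0.221) and *Twist1* (-0.04 ± 0.13, adjusted p = 0.824) no difference between the passages was detected.

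**Figure D3:**
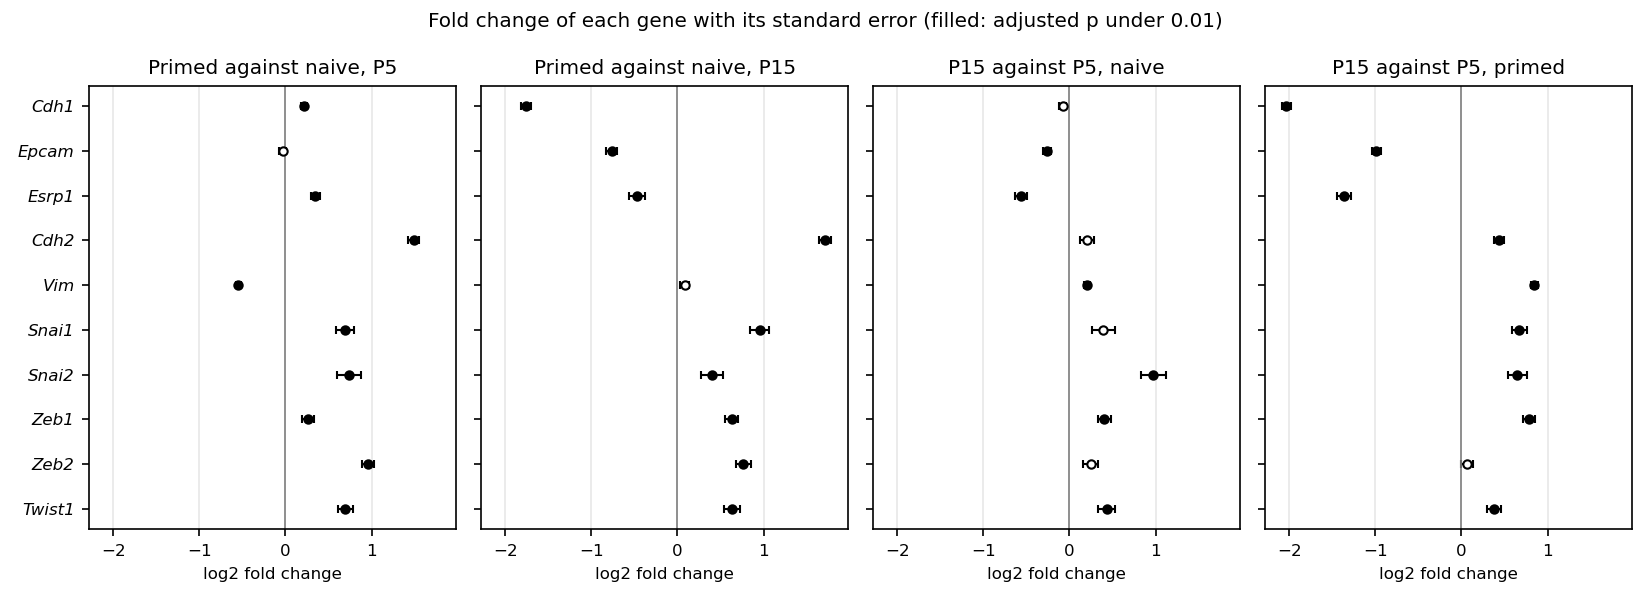
Log2 fold change of each EMT gene with its standard error, for primed against naïve cells at P5 and P15 and for P15 against P5 within each state, with filled points for an adjusted p under 0.01. The epithelial genes *Cdh1*, *Epcam* and *Esrp1* lie below 0 for primed against naïve cells at P15, while the transcription factors and *Cdh2* lie above 0 at both passages.

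Time in culture was compared within each state, in fits that share libraries with the comparisons above. In primed cells from P5 to P15, 9 of the 10 genes were called, 6 higher and 3 lower, against 47.1% of 15957 genes (24.3% higher, 22.8% lower). *Cdh1* fell 4.09-fold (log2 -2.03 ± 0.050 SE, adjusted p = 3.32e-22), *Esrp1* 2.57-fold (log2 -1.36 ± 0.078 SE, adjusted p = 2.76e-14) and *Epcam* 1.98-fold (log2 -0.99 ± 0.052 SE, adjusted p = 4.42e-15). *Vim* rose 1.80-fold (log2 0.85 ± 0.042 SE, adjusted p = 1.53e-15) and *Zeb1* 1.72-fold (log2 0.79 ± 0.066 SE, adjusted p = 9.44e-11). Smaller rises were those of *Snai1* (log2 0.67), *Snai2* (0.65), *Cdh2* (0.44) and *Twist1* (0.38), with adjusted p between 1.64e-07 and 0.000229. With the median feeder share taken off, the rise of *Snai2* was not called (0.12, adjusted p = 0.906) and *Twist1* was called lower at P15 (-1.23, adjusted p = 0.00347). The *Twist1* rise had an adjusted p of 0.0112 and a log2 value of 0.33 without primed P5 replicate 2. *Zeb2* did not pass the test (0.06 ± 0.068, adjusted p = 0.442), and its groups overlapped. The log2 changes of the 30 fibroblast markers between the same libraries had a median of 1.09, above the rise of each of these genes. Their median level in percent of MEFs went from 14.2 and 13.8 at P5 to 24.0 and 22.0 at P15. The part of feeder RNA in the rises of these genes was not tested.

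In naïve cells from P5 to P15, 6 of the 10 genes were called, 4 higher and 2 lower, against 9.22% of 15683 genes (4.21% higher, 5.01% lower). *Snai2* rose 1.97-fold (log2 0.97 ± 0.14 SE, adjusted p = 0.000427), *Twist1* 1.35-fold (log2 0.43 ± 0.096 SE, adjusted p = 0.00754), *Zeb1* 1.33-fold (log2 0.41 ± 0.076 SE, adjusted p = 0.00263) and *Vim* 1.15-fold (log2 0.21 ± 0.036 SE, adjusted p = 0.00152). *Esrp1* fell 1.47-fold (log2 -0.56 ± 0.068 SE, adjusted p = 9.57e-05) and *Epcam* 1.20-fold (log2 -0.26 ± 0.047 SE, adjusted p = 0.00197), while *Cdh1* differed by -0.08 ± 0.039 (adjusted p = 0.199). The fibroblast markers rose by a median of 0.45 here. The count of 6 fell to 3 without naïve P5 replicate 1 and to 3 without naïve P5 replicate 2.

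The cadherin balance was read as the ratio of *Cdh1* to *Cdh2* within a library, each per kb of exon, which needs no scaling between libraries. It was 24.8 and 21.5 in naïve cells at P5 and 19.4 and 18.5 at P15, 9.72 and 9.26 in primed cells at P5, and 1.73 and 1.69 in primed cells at P15. The group means were 23.1 ± 2.32, 18.9 ± 0.673, 9.49 ± 0.322 and 1.71 ± 0.0314 (SD, n = 2), and MEFs had 0.0106. The 4 groups did not overlap, and *Cdh1* remained above *Cdh2* in each naïve and primed library. These ratios include any feeder RNA. With the median feeder share taken off, *Cdh2* went from 608 and 706 to 215 and 323 counts in naïve cells at P5. In naïve cells at P15 it went from 492 and 605 to 156 and 200 counts. The ratio was not recalculated from these counts, so the separation of the naïve groups without feeder RNA was not tested. The ratio of *Epcam* to *Vim* was 0.306 ± 0.0202 in naïve and 0.438 ± 0.00346 in primed cells at P5, and 0.221 ± 0.00682 and 0.123 ± 0.00664 at P15.

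Per kb of exon, *Vim* was the most abundant of the 10 transcripts in the 4 groups of naïve and primed cells, at 247 to 442 CPM per kb, followed by *Epcam* and *Cdh1*, and *Zeb2* was the least abundant. Among the factors, *Twist1* had the highest level in these groups, at 10.6 to 22.1 CPM per kb, ahead of *Snai1*, which had 7.85 CPM per kb in naïve cells at P5. That order did not hold with the median feeder share taken off, where *Snai1* kept more counts than *Twist1* in every library. In naïve libraries *Snai1* then kept 119 to 169 counts and *Twist1* 0. In primed cells at P15 they kept 408 and 428 (*Snai1*) and 35 and 67 (*Twist1*). *Epcam* and *Cdh1* overlapped in primed cells at P5, where they stood at 108 and 107 CPM per kb. The other neighbours whose libraries overlapped were *Zeb1* and *Snai2* in naïve cells at P5, *Snai1* and *Esrp1* in primed cells at P5, and *Esrp1* with *Snai2* and *Cdh2* with *Zeb1* in naïve cells at P15. In MEFs *Snai2* stood above *Snai1*, at 34.3 and 23.8 CPM per kb, whereas *Snai1* exceeded *Snai2* 1.60-fold to 2.40-fold in the group means of naïve and primed cells.

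Among the junction and other epithelial genes, calls in primed cells were mostly higher at P5 and mostly lower at P15, where 31.2% and 31.1% of all genes were called higher and lower at P5 and 28.2% and 28.4% at P15. Of 16 junction partners of the cadherins, 10 were called higher and 3 lower in primed cells at P5 (median log2 0.25), and 4 higher and 8 lower at P15 (median -0.30). *Tjp1*, a tight junction scaffold, was higher at both passages, at 194 ± 6.29 against 298 ± 4.22 CPM at P5 (log2 0.62, adjusted p = 4.65e-15) and 186 ± 2.94 against 240 ± 5.85 CPM at P15 (log2 0.38, adjusted p = 7.19e-07). *Ocln*, which encodes the tight junction protein occludin, went from 17.8 ± 0.848 CPM in primed cells at P5 to 1.12 ± 0.305 CPM at P15, with naïve cells at 9.87 ± 2.06 and 6.29 ± 0.184 CPM (log2 0.85, adjusted p = 5.22e-07 at P5, and -2.47, adjusted p = 1.25e-09 at P15). *Marveld2* and *Pard6b*, of tricellular junctions and cell polarity, were higher in primed cells at P5 (log2 1.81 and 0.80), and at P15 stood at 1.05 (adjusted p = 1.42e-06) and -0.26 (adjusted p = 0.0108). *Jup*, which encodes plakoglobin, was lower at both passages (log2 -0.27, adjusted p = 4.36e-06 at P5, and -1.08, adjusted p = 4.48e-17 at P15).

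Of 24 other epithelial genes, primed cells had 13 called higher and 7 called lower at P5 (median log2 0.28). At P15, 5 were called higher and 16 lower of the 22 tested, with a median of -1.36. The simple epithelial keratins were among those higher at both passages. *Krt8* rose from 59.7 ± 1.49 CPM in naïve to 709 ± 5.20 CPM in primed cells at P5 and from 87.0 ± 2.49 to 179 ± 4.92 CPM at P15 (log2 3.57, adjusted p = 5.41e-33, and 1.04, adjusted p = 8.78e-17). *Krt18* (log2 3.43 and 0.88) and *Krt19* (log2 3.66 and 1.82) did likewise. *Cldn4*, a claudin, measured 193 ± 4.04 CPM in naïve and 143 ± 0.952 CPM in primed cells at P5 and 135 ± 1.58 and 4.42 ± 0.0947 CPM at P15, where it was lower by a log2 difference of -4.93 (adjusted p = 4.93e-32). *St14*, which encodes matriptase, an epithelial surface protease, was at 93.2 ± 1.62 and 92.6 ± 0.107 CPM at P5 and at 57.7 ± 2.12 and 13.8 ± 0.570 CPM at P15 (log2 -2.06, adjusted p = 1.83e-20). *Ap1m2*, a subunit of the epithelial sorting adaptor AP-1B, was at 42.4 ± 3.32 and 26.8 ± 0.0390 CPM at P5 and at 20.4 ± 3.33 and 0.477 ± 0.273 CPM at P15 (log2 -5.39, adjusted p = 3.17e-20). Within primed cells, 21 of the 23 other epithelial genes tested were called lower at P15 than at P5, each by at least 2-fold, and none was called higher (median log2 -2.20). For the junction partners 13 of 16 were called lower and none higher (median -0.60). Of all genes, 22.8% were called lower from P5 to P15 in primed cells, and 11.6% were called at 2-fold or more in either direction. The interaction was called lower for 13 of 16 junction partners and 21 of 24 other epithelial genes, against 10.8% of all genes.

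**Figure D4:**
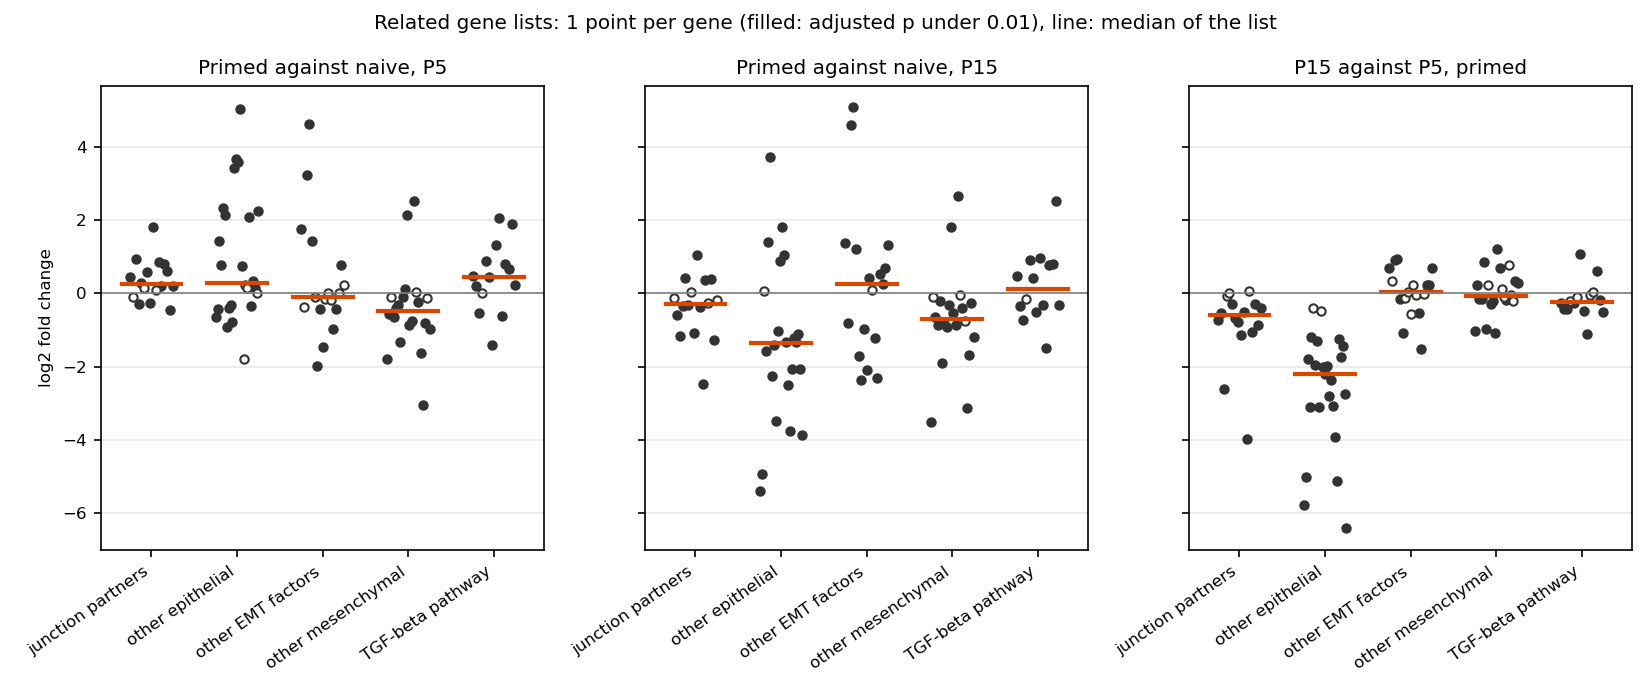
Log2 fold change of primed against naïve cells at P5 and at P15, and of P15 against P5 in primed cells, for each gene of the related lists (junction partners, other epithelial genes, other EMT factors, other mesenchymal genes, TGF-beta pathway), with 1 point per gene (filled for an adjusted p under 0.01) and a line for the median of the list. The median of the other epithelial genes moves from 0.28 at P5 to -1.36 at P15, and that of the other mesenchymal genes from -0.47 to -0.70.

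The mesenchymal genes beyond *Cdh2* and *Vim* were mostly lower in primed cells. Of 20, 3 were called higher and 14 lower at P5 (median log2 -0.47) and 2 higher and 15 lower at P15 (median -0.70). The shares of all genes called higher and lower were 31.2% and 31.1% at P5 and 28.2% and 28.4% at P15. *Acta2*, which encodes smooth muscle actin, measured 837 ± 26.5 CPM in naïve and 240 ± 10.8 CPM in primed cells at P5, 1322 ± 59.4 and 117 ± 6.23 CPM at P15, and 4619 CPM in MEFs (log2 -1.80, adjusted p = 2.35e-26, and -3.50, adjusted p = 1.25e-33). *Cnn1*, which encodes calponin, was lower too (log2 -0.31 and -1.90), whereas *Itgb3*, which encodes an integrin beta subunit, was higher (log2 2.15 and 1.80). The fibroblast library expressed each of these genes, and the part of feeder RNA in the differences was not tested.

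Of 17 other factors linked to EMT, 5 were called higher and 5 lower at P5 (median log2 -0.11) and 9 higher and 7 lower at P15 (median 0.26). The 10 of 17 called at P5 are near the 62.3% called among all genes, and at P15 16 of 17 stand beside 56.6%. *Gsc*, a homeobox gene of the primitive streak organizer, measured 0.641 ± 0.138 CPM in naïve and 15.8 ± 2.05 CPM in primed cells at P5 and 0.897 ± 0.192 and 30.2 ± 3.0 CPM at P15 (log2 4.62, adjusted p = 1.37e-17, and 5.08, adjusted p = 8.56e-23). *Hmga2*, a chromatin protein, was higher at both passages (log2 1.42 and 1.22), and *Id2*, an inhibitor of helix-loop-helix factors, was lower (log2 -1.99 and -2.35). Of 11 mesendoderm markers, *Gsc* among them, the 9 tested were called higher at P5 and 8 of the 9 at P15, and their summed level was 14.6 to 21.3 CPM in naïve, 266 to 302 CPM in primed cells and 52.2 CPM in MEFs. Their part in the differences of the 10 EMT genes was not tested.

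Of 14 genes of the TGF-beta pathway, 10 were called higher and 3 lower at P5 (median log2 0.46) and 7 higher and 6 lower at P15 (median 0.12). Among all genes 31.2% were called higher and 31.1% lower at P5, and 28.2% and 28.4% at P15. Among ligands, *Tgfb2* measured 10.7 ± 0.522 CPM in naïve and 44.7 ± 2.48 CPM in primed cells at P5 (log2 2.06, adjusted p = 1.32e-18) and 26.1 ± 1.85 and 20.7 ± 1.13 CPM at P15 (log2 -0.32, adjusted p = 0.00799), and MEFs had 84.8 CPM. *Tgfb3* was lower at both passages (log2 -0.61 and -1.49). MEFs had 437 CPM of *Tgfb3*, and the naïve and primed libraries stood at 5.30% to 16.0% of that level. The co-receptor gene *Tgfbr3* was higher in primed cells, at 26.7 ± 1.49 against 98.2 ± 0.0559 CPM at P5 and 15 ± 1.97 against 86.1 ± 0.231 CPM at P15 (log2 1.88 and 2.51). *Smad3*, the signal transducer, was higher (log2 0.89 and 0.92), and *Smad7*, the inhibitor of the pathway, was lower (log2 -1.41 and -0.51). MEFs expressed each of the pathway genes named here, and the part of feeder RNA in their differences was not tested.

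The E-box that SNAIL and ZEB factors bind was looked for in promoter windows of the genes above, written CACCTG and, on the other strand, CAGGTG. Each window runs from 250 bases before to 50 bases after the gene's start (RefSeq, GRCm38.p6), and 20.2% of all 32851 such windows held at least 1 copy. Windows of 5 of the 10 genes were read. *Epcam* held 2 copies, which begin 187 and 19 bases before the start, and *Snai1* held 1, which begins 126 bases before it, while no copy was in the windows of *Vim*, *Twist1* or *Zeb2*. *Cdh1*, *Esrp1*, *Snai2*, *Cdh2* and *Zeb1* were not analysed here in this way. Of the other epithelial genes, 11 of the 15 with a window held a copy, and of the junction partners 7 of 13, against 22.6% of all 27025 genes. The 11 included *Ap1m2* and *Cldn4*, lower in primed cells at P15, but also *Krt8* and *Krt18*, higher in primed cells at P5 and P15. Whether a copy goes with the direction of the difference was not tested. Only windows with a copy are printed. The windows printed here, with the motif in capitals, are those of *Epcam* (chr17:87635729-87636028, plus strand) and *Snai1* (chr2:167537945-167538244, plus strand), as a gene that was lower and one that was higher in primed cells at P15, and of *Ap1m2* (chr9:21312284-21312583, minus strand) and *Cldn4* (chr5:134946885-134947184, minus strand), whose differences at P15 were given above. In *Ap1m2* the 4 copies begin 81, 51, 21 and 9 bases before the start. In *Cldn4* 1 copy begins 14 bases before the start and 1 begins 11 bases after it.
Epcam: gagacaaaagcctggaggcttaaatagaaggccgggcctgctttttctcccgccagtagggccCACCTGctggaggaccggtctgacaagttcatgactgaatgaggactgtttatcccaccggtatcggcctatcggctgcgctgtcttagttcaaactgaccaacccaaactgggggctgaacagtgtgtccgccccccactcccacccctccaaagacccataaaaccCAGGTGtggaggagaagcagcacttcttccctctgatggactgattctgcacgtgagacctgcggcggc
Snai1: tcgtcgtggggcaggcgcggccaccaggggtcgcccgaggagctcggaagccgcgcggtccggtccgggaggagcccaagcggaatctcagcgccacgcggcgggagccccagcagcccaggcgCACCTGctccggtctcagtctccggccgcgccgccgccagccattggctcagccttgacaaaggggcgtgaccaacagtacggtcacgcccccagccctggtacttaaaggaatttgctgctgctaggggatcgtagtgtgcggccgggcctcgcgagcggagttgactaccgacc
Ap1m2: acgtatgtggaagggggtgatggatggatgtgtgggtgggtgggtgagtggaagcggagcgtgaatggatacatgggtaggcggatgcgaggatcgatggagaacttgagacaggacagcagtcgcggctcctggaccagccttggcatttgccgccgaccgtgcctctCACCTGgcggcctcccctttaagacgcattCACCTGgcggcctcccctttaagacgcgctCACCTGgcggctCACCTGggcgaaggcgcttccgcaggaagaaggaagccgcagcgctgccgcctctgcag
Cldn4: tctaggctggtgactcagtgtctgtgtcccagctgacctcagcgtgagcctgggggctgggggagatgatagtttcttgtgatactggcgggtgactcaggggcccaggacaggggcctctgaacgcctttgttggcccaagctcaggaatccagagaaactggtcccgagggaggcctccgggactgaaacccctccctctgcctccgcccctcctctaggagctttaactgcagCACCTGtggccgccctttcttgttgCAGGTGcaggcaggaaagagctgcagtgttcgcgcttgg
Such a match is a run of letters and not a measured site, and binding of SNAIL or ZEB factors was not measured in these data.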

How the data were processed

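Poly(A) RNA was sequenced for 8 libraries of naïve or primed cells, 2 per state and passage, and for 1 library of MEFs, which served for levels only. The authors trimmed reads with Cutadapt, aligned them to mm10 with HISAT2, and used featureCounts on Ensembl genes. Raw counts were deposited. The annotation release, strand setting and treatment of reads with several alignments are not given in the sources used here. Column names of early and late cells were matched to P5 and P15 through the deposited study design. Of 54232 gene IDs, 54079 had a symbol in GENCODE M21, which also gave positions and exon lengths. The remaining 153 took 0.0116% to 0.0165% of each library. The 92 spike-in rows, all at 0, did not enter.

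The versions were edgeR 4.0.16, DESeq2 1.42.0 and limma 3.58.1 under R 4.3.3. Genes with at least 10 counts in at least 2 libraries of a fit were tested by edgeR's quasi-likelihood test (TMM, Benjamini-Hochberg over all genes tested) in the 4 libraries of each comparison, and in the 8 naïve and primed libraries for the interaction. The code was tested on simulated counts, where the interaction missed more of the 2-fold decreases than the other fits did, so that a difference of that size between the passages can be missed. A count of 0 allows 3 counts, equal to 0.148 to 0.221 CPM in the pluripotent cells and to 0.129 CPM in MEFs. The biological coefficient of variation was 3.26% to 4.79%. No 2 libraries of a group agreed within sampling noise.

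The members, gene lists and comparisons were chosen with earlier results of these data known. The 10 members are named throughout, and of each related list the 3 genes with the smallest adjusted p at P5 and at P15, except a few not reported here. For *Cdh1*, *Epcam*, *Cdh2* and *Snai1* the 3 genes of the highest Pearson r over the 8 libraries are named, among genes of at least 10 CPM on average. The choice of *Ogn* and *Dcn* followed a look at their values. Feeder share means the ratio of a library to MEFs over the 30 fibroblast markers, taken at its median. Alternatives comprised scaling by library size alone or by DESeq2's size factors, testing without the low-count filter, fitting the 8 libraries together, a replicate block, taking off MEF counts at the median or the lowest feeder share, the Wald test of DESeq2, and leaving out each library in turn.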

Additional observations from a re-analysis of the deposited data

Results flagged for a closer look

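The difference between primed and naïve cells was not the same at P15 as at P5 for 5 of the 10 EMT genes, by the interaction of state and passage in edgeR's quasi-likelihood test. For the epithelial genes the log2 difference at P15 minus that at P5 was -1.95 for *Cdh1* (adjusted p = 8.86e-22), -0.72 for *Epcam* (adjusted p = 9.57e-10) and -0.80 for *Esrp1* (adjusted p = 7.40e-07). For *Cdh1* and *Esrp1* the direction of the state difference turned around, from higher to lower in primed cells. For *Vim* it was 0.65 (adjusted p = 5.70e-12) and for *Zeb1* 0.39 (adjusted p = 0.00302). No group held 4 or more libraries, so that single libraries could not be tested as outliers.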

How the results depend on the processing

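Of 648 values of the 10 EMT genes under alternative settings, 599 kept their direction and their side of the threshold, 41 lost a call, 2 gained one and 6 changed sign. Those that changed sign were *Epcam* at P5 with library size alone (0.17), *Zeb2* from P5 to P15 in primed cells with library size alone (-0.0682) and with the median feeder share taken off (-0.0888), and, under the latter, *Cdh1* (0.0116) and *Cdh2* (-0.0422) in naïve cells and *Twist1* in primed cells (-1.23, adjusted p = 0.00347) from P5 to P15. That last fit rests on 35 to 158 *Twist1* counts a library. Library size alone moved the median of all genes by 0.21 at P5, 0.10 at P15, -0.13 from P5 to P15 in primed cells and -0.11 in the interaction. The number of EMT genes called from P5 to P15 in naïve cells was 6, but 3 without the low-count filter and 2 of 8 tested with the median feeder share taken off, and the cause was not tested for the former. Leaving out each library in turn gave 8 to 9 called genes at P5, 7 to 8 at P15, 4 to 5 for the interaction, 3 to 5 in naïve cells and 8 to 9 in primed cells over passages, where the lone library left in a group is assumed to vary like the other group. *Esrp1* at P15 kept its direction but not its call with the median feeder share taken off (-0.37, adjusted p = 0.0227), and DESeq2's Wald test did not call *Zeb1* at P5 (adjusted p = 0.0311) or *Snai2* at P15 (adjusted p = 0.0580).

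Whether same-numbered libraries share anything beyond the number is not given in the sources used here. The correlation of the deviations of same-numbered libraries was -0.127 at P5 and -0.190 at P15, and 0.161 and 0.159 over passages in naïve and primed cells. With a replicate block 9 EMT genes were called at P5, 8 at P15 (without *Snai2*), 4 for the interaction (without *Zeb1*), 7 in naïve cells (with *Snai1*, adjusted p = 0.00615) and 9 in primed cells, and no other call of an EMT gene changed. A crossed block, chosen after seeing the data, called 9 at each of P5 and P15. Depth limits *Snai2* most, with the lowest counts of the set.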

Other observations

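Over the 8 naïve and primed libraries, and among 9998 genes of at least 10 CPM on average, the genes whose log2 level ran closest to that of *Cdh1* were *Cep70*, *Srpk2* and *Slc44a1* (Pearson r of 0.999, 0.996 and 0.995). For *Epcam* they were *St14*, *Mdm4* and *Gprc5a* (0.995, 0.993 and 0.993), for *Cdh2* they were *Galnt1*, *Limd2* and *Gstm5* (0.998, 0.998 and 0.998), and for *Snai1* they were *Sertad4*, *Antxr2* and *Cnpy4* (0.996, 0.993 and 0.989). The libraries form 4 groups of 2, so that these values are descriptions of a shared pattern over groups and depth.

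N-cadherin is also a cadherin of neural cells. Of 10 neural and neural crest genes, 8 were tested at each passage, with 2 called higher and 3 lower in primed cells. Being called says little here, since 62.3% of all genes were called at P5 and 56.6% at P15. The neural and neural crest genes had a median log2 difference of 0.34 at P5 and 0.28 at P15. Their summed level went the other way, at 87.2 to 125 CPM in naïve and 40.5 to 73.1 CPM in primed cells, with 77.0 CPM in MEFs, and *Tubb3*, named after its values were seen, made up more of it than any other gene in naïve cells. The 7 genes of the primed state stood at 350 to 368 CPM in naïve, 1045 to 1087 CPM in primed cells and 7.98 CPM in MEFs.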
